A study of Perna viridis with 2 samples.

Results

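A pair of assembled entries from the mantle of the green mussel Perna viridis is described here. The first is TRINITY_DN61249_c2_g1, the most abundant entry of the periostracal groove, whose best database match is an unnamed protein of the mussel Mytilus coruscus. The second is TRINITY_DN5815_c0_g1, whose best match is shell protein-3 of the same species. The 2 entries were chosen by their identifiers, out of 78458 listed, because of their levels in these profiles. Their levels, ranks and ratios are therefore a description, with no test.

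The profiles came from untreated, mature animals with shells of 6 to 7 cm, taken on the coast at Zhuhai, of unknown genotype and with no age in the labels. One profile is the periostracal groove, which separates the outer from the middle fold of the mantle edge. The other is the submarginal zone, which runs inward from the folds as far as the pallial line. Tissue of 6 animals was pooled in each sample and 3 biological replicates were stated, but 1 profile per region was analysed here, so no difference has a replicate check. The value columns of both tables are headed with the name of the groove sample, and the region of each was taken from the record under which it was deposited. An exchange of the tables would turn every direction given here.

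The periostracum is the organic outer layer of the mussel shell. It is secreted as soluble protein precursors by epithelial cells lining a groove at the mantle edge. The precursors are then hardened by cross-links that form once tyrosine residues are oxidised (quinone tanning). The finished layer covers the outer surface of the shell and serves as a support on which the mineral layers are laid down. Proteins named shell proteins in databases are components attributed to molluscan shells, and the name of the match gives no biochemical activity for shell protein-3.

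Values are in TPM, a length-adjusted share of all transcripts in a library. Levels of different entries can be set side by side in this unit. Because read depth is lost in it, counting error could not be given. The groove values summed to 999875 TPM over 78453 entries with a value, and the submarginal values to 999820 TPM. No sequence of either entry was in the tables used, so none is printed.

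TRINITY_DN61249_c2_g1 reached 104422 TPM in the groove, against 396 TPM in the submarginal zone. It was thus 264-fold higher in the groove, a log2 ratio of 8.04 after adding 1 TPM to both values. It held rank 1 of all groove entries and rank 238 of submarginal ones. Put as a share, this single entry made up 10.4% of all groove TPM and 0.0396% of submarginal TPM.

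Shell protein-3 had 9781 TPM in the groove, against 26.5 TPM in the submarginal zone. The groove level was 369-fold higher, a log2 ratio of 8.47. It stood at rank 15 in the groove and rank 1969 in the submarginal zone, and held 0.978% of groove TPM and 0.00265% of submarginal TPM. Shell protein-3 was therefore among the most abundant groove entries without dominating the region, since it held less than 1% of its TPM.

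The entries differed more in level than in ratio. In the groove, TRINITY_DN61249_c2_g1 was 10.7-fold above shell protein-3, and in the submarginal zone 14.9-fold above it. Their log2 ratios differed by 0.43, with shell protein-3 the higher, and no test of that difference was possible. Together they held 11.4% of groove TPM and 0.0422% of submarginal TPM.

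**Figure D1:**
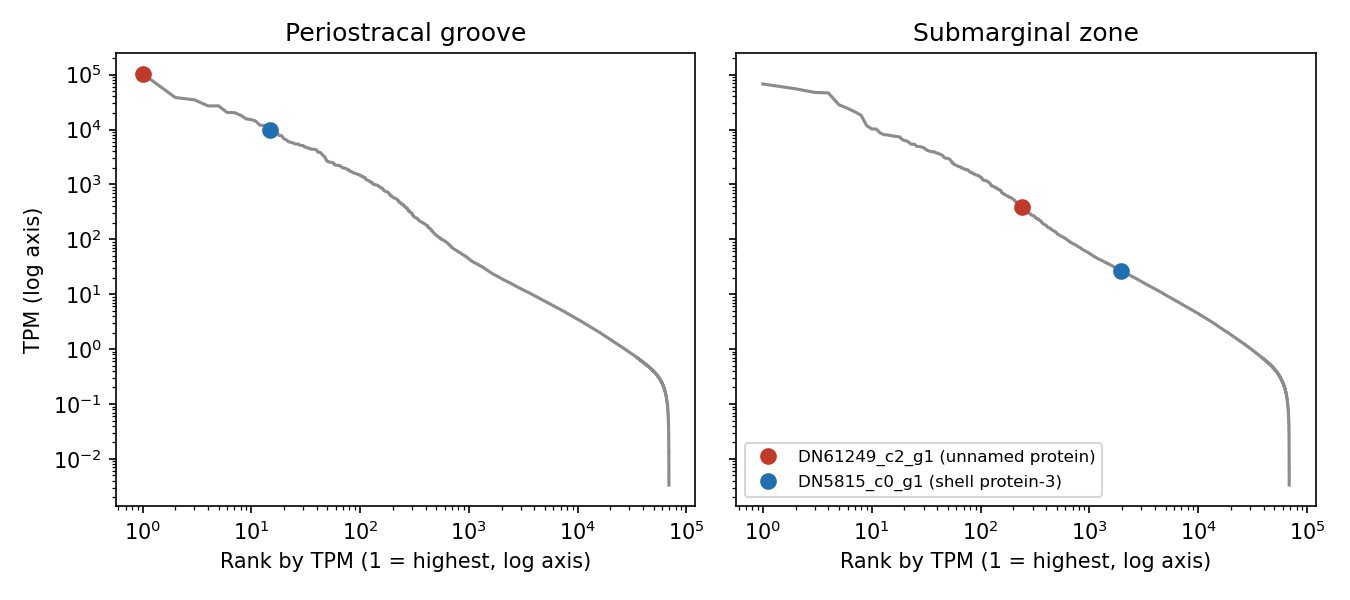
Abundance of every entry above 0 against its rank in the periostracal groove (left) and the submarginal zone (right), both axes logarithmic, with the unnamed-protein entry in red and shell protein-3 in blue. In the groove they sit at ranks 1 and 15, and in the submarginal zone at ranks 238 and 1969.

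An entry was counted as higher in 1 region when the ratio after adding 1 TPM reached 4-fold and its higher value was 10 TPM or more. Both entries passed in the groove direction, as did 9.45% of the 5800 entries reaching 10 TPM, 548 in all. A further 12.4% passed in the submarginal direction. Counted this way, 43.3% of the entries that passed did so in the groove direction, and 54.8% with median-of-ratios scaling or 54.3% with upper-quartile scaling. The median log2 ratio of entries reaching 10 TPM was -0.55 as deposited, and -0.14 and -0.16 with those scalings in the same order. At 100-fold both passed again, as did 1.47% of the 5800, or 85 entries. Since the choice of the pair used this same contrast, nothing is read from these counts. Ordered by log2 ratio among the 5800, shell protein-3 came 30th and TRINITY_DN61249_c2_g1 38th from the groove end.

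TRINITY_DN61249_c2_g1 stood clear of the next groove entry. Its groove level was 2.73-fold that of rank 2, TRINITY_DN56386_c0_g1, which had 38276 TPM in the groove, against 67527 TPM in submarginal tissue, and carried no description. The corresponding step between ranks 1 and 2 of the submarginal zone was 1.22-fold. The levels of the next 4 groove entries had to be added together to exceed it.

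Within the 548 entries higher in the groove, TRINITY_DN61249_c2_g1 alone held 29.1% of the groove TPM and shell protein-3 held 2.72%. The same set held 35.9% of all groove TPM. TRINITY_DN61249_c2_g1 also had the highest submarginal level of the 548, so the entry most abundant in the groove was not among those nearest to 0 in the submarginal zone. Shell protein-3 ranked 24th of the 548 by submarginal level. Of all 78453 entries, 99.7% had a lower submarginal value than TRINITY_DN61249_c2_g1 and 97.5% had a lower one than shell protein-3, while the median of submarginal values above 0 was 0.84 TPM.

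The ratios of the pair were then set beside those of the other leading groove entries. Of 135 entries at 1000 TPM or more in the groove, 45 passed 4-fold in the groove direction and 1 in the submarginal direction. Over all 5800 entries reaching 10 TPM the shares were 9.45% and 12.4% in the same order. Because the 135 were taken by groove level alone, an excess in the groove direction is built in, and nothing is read from it. Across the 45 the groove level was 4.74-fold to 14103-fold the submarginal level, with a median of 405-fold and quartiles of 207-fold and 814-fold. Shell protein-3, with rank 24 of the 45 by this ratio, lay next to the median, and TRINITY_DN61249_c2_g1 had rank 31. None of the 45 was at 0 in the submarginal zone. Over all 548 the median was 46.0-fold, with quartiles of 9.76-fold and 322-fold. Of the 548, 42 were at 0 in the submarginal zone and so had no defined ratio, and they were ordered above all others here.

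The 45 entries held 31.8% of groove TPM, and 20.4% when the pair was left out. Of the 45, 28 had no description and 15 were described as unnamed, hypothetical or uncharacterised. Over all 78453 entries, 29900 had a description and 13188 a product name, so many entries at any level lack 1. Nothing is read from the counts for the 45. Shell protein-3 was 1 of the 2 with a product name. The other, an actin entry (TRINITY_DN8000_c0_g1, named here after its values were seen), had 1297 TPM in the groove, against 274 TPM in submarginal tissue.

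Among the 13188 entries with a product name, shell protein-3 had rank 2 in the groove and rank 1029 in the submarginal zone. The product-named entry above it in the groove was TRINITY_DN59302_c0_g1, matched to a partial record of actin 1, a cytoskeletal filament protein, of Schmidtea polychroa. It had 20278 TPM in the groove, against 28237 TPM in submarginal tissue. Of the 548 entries higher in the groove, 116 had a product name, beside 13188 of all 78453 entries. Shell protein-3 supplied 51.3% of the groove TPM of those 116, and was 7.54-fold above the next of them.

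The 10 most abundant groove entries were taken by groove level, so an excess in the groove direction is built in. Over all 5800 entries reaching 10 TPM, 9.45% passed 4-fold in the groove direction and 12.4% in the submarginal direction. Nothing is read from the counts that follow. TRINITY_DN61249_c2_g1 and 3 others passed 4-fold in the groove direction and together held 15.8% of groove TPM. The other 6 were less than 4-fold apart, holding 16.3% of groove TPM and 26.9% of submarginal TPM. The 3 that shared the direction of TRINITY_DN61249_c2_g1 were TRINITY_DN18598_c0_g1, TRINITY_DN60547_c0_g1 and TRINITY_DN58067_c0_g1.

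TRINITY_DN18598_c0_g1, matched to an unnamed protein of Mytilus edulis, had 20428 TPM in the groove, against 2.35 TPM in submarginal tissue. TRINITY_DN60547_c0_g1, with no description, had 18121 TPM in the groove, against 51.2 TPM in submarginal tissue. TRINITY_DN58067_c0_g1, matched to a hypothetical protein of Mytilus galloprovincialis, had 15125 TPM in the groove, against 59.8 TPM in submarginal tissue. At 8705-fold, the first of these was much further apart between regions than TRINITY_DN61249_c2_g1, and the others, at 354-fold and 253-fold, lay on either side of it.

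Of the 15 most abundant groove entries, down to shell protein-3, 8 passed 4-fold in the groove direction, beside 9.45% of all 5800. These 15 were likewise taken by groove level, so that excess is built in too. The other 7 were less than 2-fold apart, with groove levels of 0.567 to 0.718 of the submarginal ones. In the 6 of those 7 that belong to the 10 most abundant, actin 1 was the one with a description; TRINITY_DN60161_c2_g1 had 34723 TPM in the groove, against 55143 TPM in submarginal tissue. TRINITY_DN19569_c1_g1 and TRINITY_DN22456_c0_g1 had 26931 and 26912 TPM in the groove, against 46395 and 47371 TPM in the submarginal zone. TRINITY_DN60196_c1_g1 had 15642 TPM in the groove, against 24291 TPM in submarginal tissue.

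**Figure D2:**
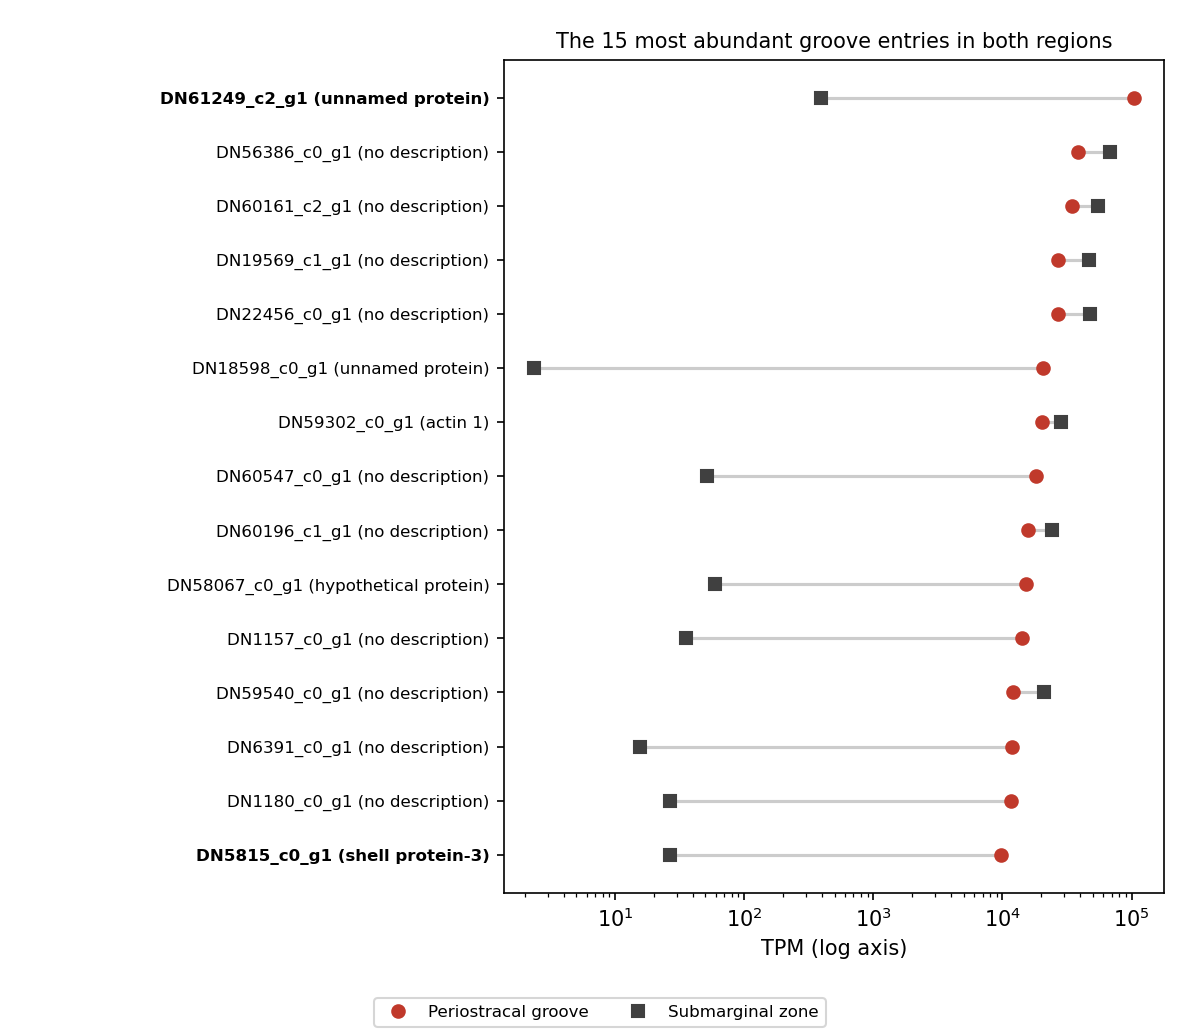
TPM on a logarithmic axis of the 15 most abundant groove entries, ordered by groove level from top to bottom, with circles for the groove, squares for the submarginal zone and the described pair in bold. In 8 rows the circle lies far to the right of the square, and in the other 7 the square lies slightly to the right.

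Because TPM is a share of a fixed total, an entry as abundant as TRINITY_DN61249_c2_g1 lowers the values of all others in its library. Leaving both entries out of the totals multiplied every other groove value by 1.13 and every other submarginal value by 1.0004. The median log2 ratio of the remaining entries reaching 10 TPM was -0.55 as deposited and -0.39 on the totals without the pair, a shift of 0.16. The levels of the 7 shared entries in the groove became 0.640 to 0.810 of the submarginal ones when the pair alone was left out. The other groove-high entries stayed in these totals. Those at 1000 TPM or more held 20.4% of groove TPM without the pair, and their part in the remaining difference was not tested.

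Entries of the same Trinity cluster number, which the assembler gives, were then examined. Whether entries of 1 number share sequence was not checked, as no sequence was at hand. TRINITY_DN61249_c2_g1 was the 1 entry of cluster DN61249 in the tables. That was the common case, as 67.1% of the 49400 clusters had a single entry. The other components to which its c2 label points were not analysed here.

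Cluster DN5815 had 3 entries. Besides shell protein-3, TRINITY_DN5815_c3_g1 had 6.48 TPM in the groove and was listed at 0 in submarginal tissue. TRINITY_DN5815_c1_g1 had 0.71 TPM in the groove, against 0.16 TPM in submarginal tissue. Neither carried a description or reached 10 TPM, and both were higher in the groove, like shell protein-3. Shell protein-3 held 99.9% of the cluster's groove TPM, so the sum over the cluster is close to its own value.

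A second entry outside this cluster carried the same match. TRINITY_DN42909_c0_g1, also described as shell protein-3 of Mytilus coruscus, had 1.60 TPM in the groove and was listed at 0 in submarginal tissue. The 2 entries together had 9782 TPM in the groove, against 26.5 TPM in submarginal tissue. Whether they are fragments of 1 gene, alleles or separate genes cannot be told from the tables, and entries that share sequence can share reads.

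The match of TRINITY_DN61249_c2_g1 was far less specific. Its description, an unnamed protein product of Mytilus coruscus, was carried by 5238 entries, of which 577 reached 10 TPM. Of those 577, 63 (10.9%) passed 4-fold in the groove direction and 112 (19.4%) in the submarginal direction, with a median log2 ratio of -0.47. Across all 5800 entries the corresponding shares were 9.45% and 12.4% and the median was -0.55. Entries with this description thus went both ways.

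TRINITY_DN61249_c2_g1 held 78.9% of the summed groove TPM of those 5238 entries and 1.22% of their summed submarginal TPM. In the submarginal zone 8 of them ranked above it. The next in the groove, TRINITY_DN12954_c0_g1, had 1596 TPM in the groove, against 1466 TPM in submarginal tissue. TRINITY_DN1508_c0_g1 followed with 1500 TPM in the groove, against 1848 TPM in submarginal tissue. Both were thus nearly level between the regions, as were TRINITY_DN2996_c0_g1, at 1.26-fold, and TRINITY_DN25248_c0_g1, at 1.41-fold. TRINITY_DN34_c0_g1 was the exception among the 5, with 1010 TPM in the groove, against 199 TPM in submarginal tissue.

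The entries most like each of the pair were ranked by distance in log2(TPM + 1) over the 2 regional values. Shell protein-3 had close neighbours. TRINITY_DN1180_c0_g1, with 11631 TPM in the groove, against 26.6 TPM in submarginal tissue, was 0.25 log2 units away. It was followed by TRINITY_DN61357_c0_g1 at 0.60, TRINITY_DN1157_c0_g1 at 0.66, TRINITY_DN16360_c0_g1 at 0.67 and TRINITY_DN6391_c0_g1 at 0.79 log2 units. TRINITY_DN61357_c0_g1 was described as a hypothetical protein, and the other 4 had no description.

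In these 5 neighbours of shell protein-3 the groove level was 307-fold to 767-fold the submarginal level. TRINITY_DN61357_c0_g1 had 6752 TPM in the groove, against 21.7 TPM in submarginal tissue. TRINITY_DN16360_c0_g1 had 6473 TPM in the groove, against 21.1 TPM in submarginal tissue. They thus bracket shell protein-3 on both axes together with TRINITY_DN1157_c0_g1, which had 14199 TPM in the groove, against 35.0 TPM in submarginal tissue. TRINITY_DN6391_c0_g1, the most distant of the 5, had 11854 TPM in the groove, against 15.5 TPM in submarginal tissue.

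TRINITY_DN61249_c2_g1 had no such company. Its nearest entry, TRINITY_DN60547_c0_g1, was 3.87 log2 units away, and TRINITY_DN58067_c0_g1 was 3.89 units away. The next were TRINITY_DN335_c0_g1 at 4.06, TRINITY_DN1157_c0_g1 at 4.50 and TRINITY_DN1180_c0_g1 at 4.98 units. TRINITY_DN335_c0_g1, just below shell protein-3 in groove rank, had 9264 TPM in the groove, against 94.3 TPM in submarginal tissue. The 2 values per entry are a thin basis for likeness, and the distance says where the entries lie, not that they are related.

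**Figure D3:**
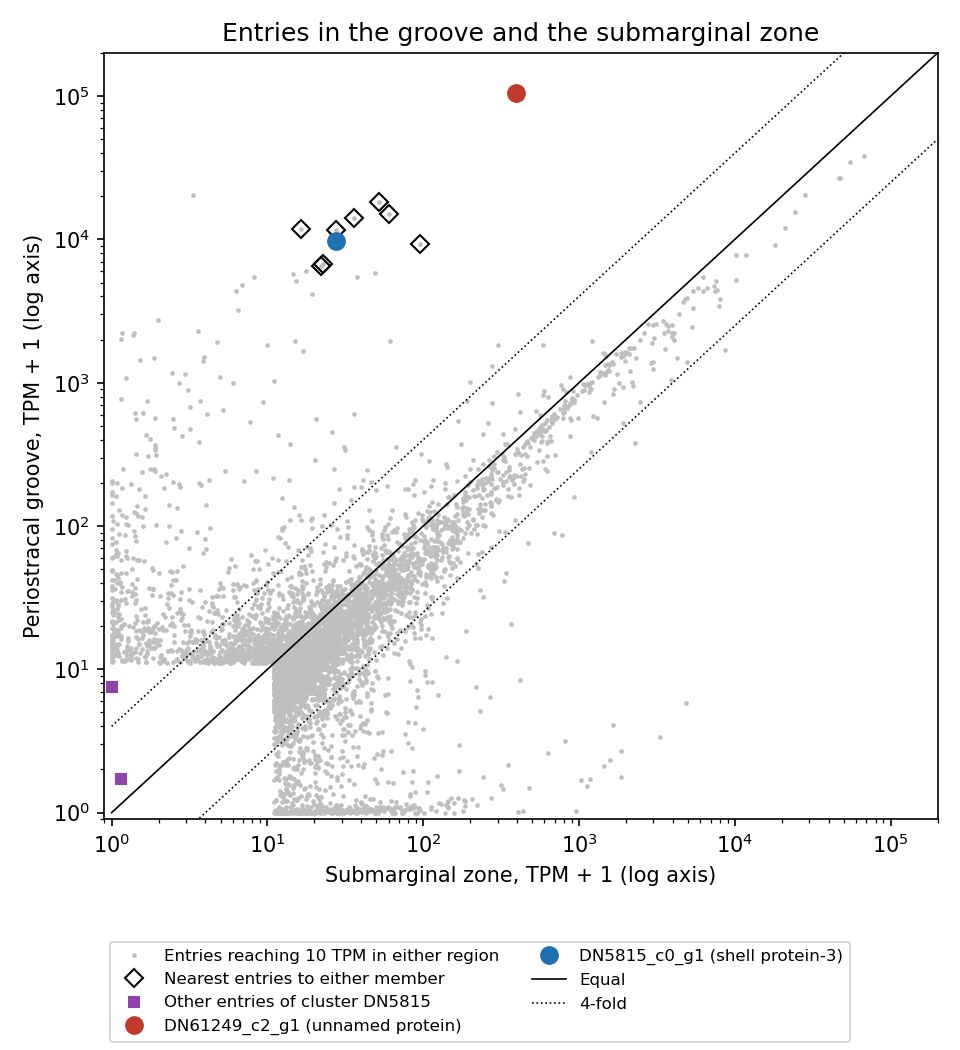
Groove against submarginal TPM, each plus 1 on logarithmic axes, for the 5800 entries reaching 10 TPM in either region (grey), the described pair (red and blue), their nearest entries (open diamonds) and the other entries of cluster DN5815 (purple squares, both under 10 TPM). Shell protein-3 lies inside a group of neighbours, and the unnamed-protein entry lies alone above them, at 104422 TPM in the groove, against 396 TPM in submarginal tissue.

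Shell protein-3 was next set beside other entries named for shell, periostracum or byssus, the protein threads by which mussels attach. The name patterns matched 21 entries, of which 10 reached 10 TPM. Of these 10, 2 passed 4-fold in the groove direction, 2 in the submarginal direction and 6 in neither, beside 9.45% and 12.4% of all 5800 in the same order. One of the 2 in the groove direction was shell protein-3 itself, which was chosen for its level in this contrast. The median log2 ratio of the 10 was -0.52, against -0.55 over all 5800. The patterns also caught 5 entries matched to PIF1, 1 of them described as a DNA helicase, and 3 cysteine and glycine-rich proteins, a family of LIM-domain proteins. Without these 8, 9 entries reached 10 TPM, with 5 less than 4-fold apart and a median of -0.59.

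Shell protein-3 was the highest of the 10 in the groove and the eighth in the submarginal zone. It held 95.6% of the list's groove TPM and 4.20% of its submarginal TPM. The rest of the list summed to 446 TPM in the groove, against 606 TPM in submarginal tissue, a groove level of 0.736 of the submarginal one. The list's higher sum in the groove, 10227 TPM against 632 TPM in the submarginal zone, thus came from shell protein-3.

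Shell protein-6, the one other numbered shell protein in the tables, did not share the pattern. It had 68.1 TPM in the groove, against 81.4 TPM in submarginal tissue. Nacre protease inhibitor-like protein 1, named for nacre, the inner shell layer, had 128 TPM in the groove, against 62.2 TPM in submarginal tissue. A perlucin-like protein, whose namesake is a C-type lectin first known from abalone nacre, had 19.1 TPM in the groove, against 37.6 TPM in submarginal tissue. Protein PIF, named after a pearl oyster protein that binds aragonite, had 12.2 TPM in the groove, against 23.2 TPM in submarginal tissue. Each of these stayed less than 4-fold apart.

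Of the byssus-named entries, byssal peroxidase-like protein 4 was the 1 that shared the direction of shell protein-3, with 25.5 TPM in the groove, against 1.76 TPM in submarginal tissue. A pair of calumenin-like proteins, named after a calcium-binding protein of the secretory pathway, went the opposite way. TRINITY_DN3457_c0_g1 had 5.45 TPM in the groove, against 92.2 TPM in submarginal tissue, and TRINITY_DN1754_c0_g1 had 0.02 TPM in the groove, against 33.0 TPM in submarginal tissue. Byssal HSP-like protein 1 had 97.9 TPM in the groove, against 148 TPM in submarginal tissue, the highest submarginal value of the list. TRINITY_DN61249_c2_g1, at 396 TPM, was above every entry of the list in the submarginal zone as well as in the groove. A cysteine and glycine-rich protein completed the 10, with 80.0 TPM in the groove, against 111 TPM in submarginal tissue.

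**Figure D4:**
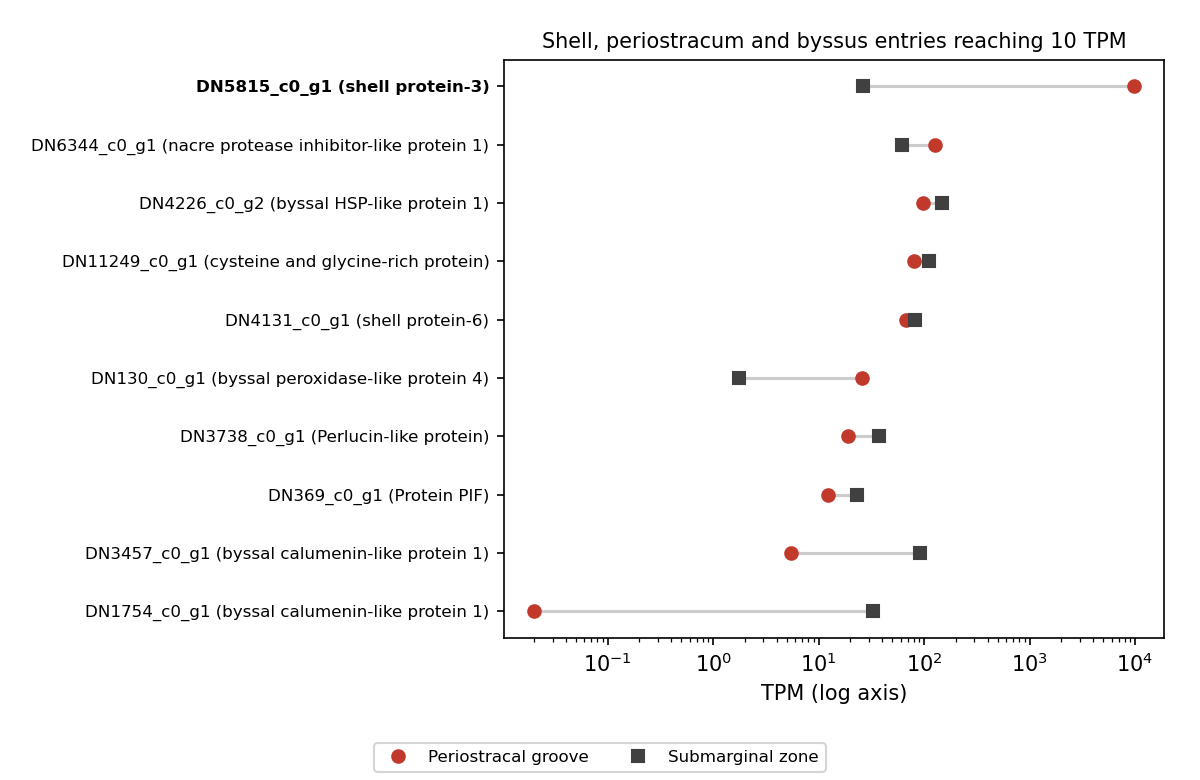
TPM on a logarithmic axis of the 10 shell, periostracum and byssus entries reaching 10 TPM, ordered by groove level, with circles for the groove, squares for the submarginal zone and shell protein-3 in bold. Shell protein-3 is at 9781 TPM in the groove, against 26.5 TPM in submarginal tissue, and no other entry of the list exceeds 148 TPM in either region.

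Whole tissue was sequenced, so for the pair a difference in the number of cells of a type and a difference in RNA per cell cannot be told apart. Markers of mantle epithelium were present in both regions, and no description named nacrein, a carbonic anhydrase-like shell protein. The 29 epithelial entries summed to 10061 TPM in the groove, against 512 TPM in submarginal tissue. Without shell protein-3 the sums were 280 TPM in the groove, against 485 TPM in submarginal tissue. That order rested on 1 carbonic anhydrase, TRINITY_DN33711_c0_g1 (named here after its values were seen), with 0.13 TPM in the groove, against 221 TPM in submarginal tissue. With it left out too, the sums were 280 TPM in the groove, against 264 TPM in submarginal tissue. Of the 10 epithelial entries reaching 10 TPM, 3 passed 4-fold in the groove direction and 1 in the submarginal direction. The shares over all 5800 entries were 9.45% and 12.4% in the same order. The 3 included shell protein-3, which was chosen for its level in this contrast. The median log2 ratio was 0.22 over the 10, and -0.55 over all 5800. Without shell protein-3, 2 of 9 passed in the groove direction and 1 in the submarginal direction, with a median of 0.20.

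The lists for other tissue types each had a lower sum in the groove, where the median log2 ratio over all 5800 entries was -0.55. The 24 muscle entries had 4498 TPM there, against 14397 TPM in submarginal tissue, with a median of -1.74 over those reaching 10 TPM. The 34 cilia entries had 165 TPM in groove tissue and 568 TPM in submarginal tissue, with a median of -1.88. The 28 nerve entries had 73.1 TPM in groove tissue and 157 TPM in submarginal tissue, with a median of -1.42 over the 2 reaching 10 TPM. Most of both sums came from 1 neuropeptide entry, with 43.9 TPM in the groove, against 108 TPM in submarginal tissue. The 16 haemocyte (blood cell) entries had 1452 TPM in groove tissue, against 2419 TPM in submarginal tissue, and their median of -0.47 was no lower than that of all entries.

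The 4 germ cell entries had 0.50 TPM in groove tissue and 244 TPM in submarginal tissue. When names with endings were allowed, 8 entries had 20.0 TPM in groove tissue and 400 TPM in submarginal tissue, and PIWIa, a germline small-RNA protein, made up 19.3 TPM of the groove sum. Passing 4-fold in the submarginal direction were 3 of 3 germ cell, 2 of 7 cilia, 1 of 12 haemocyte, 0 of 5 muscle and 0 of 2 nerve entries reaching 10 TPM, beside 12.4% of all 5800. None passed in the groove direction, beside 9.45% of all. Listed at 0 in the groove were 7 muscle, 6 cilia, 1 nerve and 1 germ cell entry, beside 9190 of all 78453 entries. At 0 in the submarginal zone were 4 muscle, 2 cilia, 1 nerve and 0 germ cell entries, beside 10146 of all. The muscle entries among these had at most 2.94 TPM in the other region and included a match described as non-muscle. Nothing is read from these zeros. The part of these tissue differences in the levels of the pair was not tested.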

How the data were processed

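Total RNA of the 2 mantle regions was treated with DNase and sequenced from Illumina TruSeq libraries, per the labels' protocols. The tool fastp was used, per the submitters' processing notes. How entries were assembled, quantified and matched is not given in the sources used here. For each entry and region, the authors deposited 1 TPM value. The unit was inferred from the sums, 999875 and 999820. Every value was a whole multiple of 1/300 within 0.002 steps, the step of a mean of 3 values with 2 decimals, so each was taken as the authors' mean and has no SD. The 5 entries with empty cells were left out.

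The log2 ratio divides the groove by the submarginal value, each plus 1 TPM, and so understates differences of low entries. Plain TPM ratios are given as folds. An entry was called at 4-fold with 10 TPM or more in the higher region, without a test. A product name is any description other than unnamed, hypothetical or uncharacterised. Tissue markers were matched as whole words. Allowing endings, which adds PIWIa, SYCP1, SYCP2 and NANOS3 to the germ cell list, was a choice made after the data were seen. The patterns of the shell list were matched at the start of words, with endings allowed.

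Named entries were the pair, their Trinity clusters, the 10 highest groove entries, the 5 nearest to each of the pair, the 5 highest with the same description, and list entries reaching 10 TPM. The 15 highest were shown in order to reach shell protein-3. The pair, the lists and the 1000 TPM level were chosen with earlier results of these data known. The calling rule was tested on counts simulated from an averaged profile at an assumed depth, without variation between animals or libraries. That test checks how the rule is computed and gives no error rate for these data. Versions were pandas 2.3.3, numpy 2.4.6 and matplotlib 3.10.9 under Python 3.11.15.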

Additional observations from a re-analysis of the deposited data

How the results depend on the processing

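Both entries stayed higher in the groove, and past 4-fold, under every pseudocount and scaling tried. The pair was chosen for this contrast and stands at 264-fold and 369-fold. Passing 4-fold was therefore fixed in advance, and only the size of the shifts is of use. For TRINITY_DN61249_c2_g1 the log2 ratio was 8.03 with pseudocount 5 TPM, 8.40 with median-of-ratios scaling, 8.38 with upper-quartile scaling and 8.09 scaled to the total without the 10 most abundant entries of either region. For shell protein-3 it was 8.52 with pseudocount 0.1 TPM and 8.28 with pseudocount 5 TPM, and 8.83, 8.81 and 8.52 with those 3 scalings in the same order.

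Over entries with 10 TPM or more, TRINITY_DN61249_c2_g1 held 11.3% of groove TPM and 0.0435% of submarginal TPM, and shell protein-3 held 1.06% of groove TPM and 0.00292% of submarginal TPM. With the other of the pair left out of the groove total, the shares were 10.5% for TRINITY_DN61249_c2_g1 and 1.09% for shell protein-3. Among entries with a description, TRINITY_DN61249_c2_g1 had rank 1 of groove and rank 199 of submarginal levels, and shell protein-3 rank 5 of groove and rank 1667 of submarginal levels.

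The count of entries at least 4-fold higher in the groove, 548, was 1023 with a minimum of 1 TPM or none, 202 with a minimum of 50 TPM, 350 with pseudocount 5 TPM and 880 at 2-fold. Fewer or more entries can pass under each by construction. No paired analysis was possible because each region has 1 profile. No replicate could be left out for the same reason, and the unknown depth limits what low values such as those of cluster DN5815 can show.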
